A study of Mus musculus with 6 samples.

Results

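The 46 genes described here encode the machinery of DNA replication and what it needs in S phase: the proteins that mark and open replication origins, the polymerases, the clamp and its loader, the enzymes that join new strands and make deoxynucleotides, the regulators of entry into S phase, and the factors that copy DNA methylation. The rule takes them by gene name from a list and uses no measured value, although the list was drawn up with earlier results of these data known, and all 46 were found among the 20788 genes listed in at least 1 library. Messenger RNA was sequenced from B16, a mouse melanoma line of C57BL/6 origin that can make melanin. The Tyr-L group has low and the Tyr-H group high activity of tyrosinase, the enzyme that starts melanin synthesis, and each group had 3 libraries. Both groups are subclones of the same line, grown untreated in low-glucose DMEM with 10% serum. The sources used here do not say how many clones each group held, so a difference between the groups may belong to the clones. Whether the 3 libraries within a group are separate cultures is not stated in the labels, and the p-values may then reflect technical spread alone.

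Replication is prepared in G1, when the origin recognition complex (ORC), Cdc6 and Cdt1 load the MCM helicase onto DNA, a step called licensing. On entry into S phase the kinases Cdc7 and Cdk2 switch the loaded helicase on by bringing in Cdc45 and the GINS complex, and DNA polymerases copy both strands behind it. Many of these genes are targets of the E2F transcription factors, which the retinoblastoma family holds back until cyclin-dependent kinases release them, and their transcripts are widely used as a readout of proliferation.

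Values are FPKM (fragments per kilobase of transcript per 1000000 mapped fragments), and limma was fitted on log2(FPKM + 0.1) across the 14336 genes whose mean reached 0.1 FPKM. A gene passed the test at a Benjamini-Hochberg adjusted p of at most 0.05, and passed both thresholds when the absolute log2 fold change was also at least 1. Fold changes are for Tyr-H against Tyr-L throughout. The label check held for *Tyr*, the tyrosinase gene, which read 10.7, 9.52 and 9.80 FPKM in Tyr-L and 23.8, 20.6 and 19.7 FPKM in Tyr-H. Depth was estimated at 19000000 to 22000000 fragments per library from the FPKM that a single fragment is worth, and the member value with the fewest estimated fragments, of *Gins3*, rested on about 227. The Tyr-L libraries listed 17211 to 17413 genes and the Tyr-H libraries 16813 to 16949. Transcripts of the mitochondrial genome took 8.89 to 9.43% of the summed FPKM in Tyr-L and 13.2 to 13.8% in Tyr-H. How far FPKM as deposited move with that share was not tested. All 7 melanocytic markers examined were listed, with means of 15.7 to 3395 FPKM, *Tyr* higher and the other 6 lower in Tyr-H by the test on the deposited scale. The calls of *Mlana* and *Tyrp1* were lost after the median ratio scaling and after the GC content and length correction described below. Of the 5 leukocyte markers only *Cd68* was listed (mean 3.93 FPKM), of the 3 endothelial markers only *Pecam1*, and no fibroblast marker exceeded a mean of 0.463 FPKM.

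The promoters of some members are shown here because the rule itself read no E2F letters before the start. Many of these genes are known as E2F targets, however, so their share with the letters is no independent result. Of the 46 genes, 38 matched the RefSeq promoter table (GRCm38.p6), and *Ccne2*, *Gins1*, *Gins2*, *Gins4*, *Mcm4*, *Pole*, *Prim2* and *Rfc2* did not. The E2F letters searched were TTTCCCGC, TTTCGCGC, TTTGCCGC and TTTGGCGC, on both strands, in the 250 bases before each start. They stood before *Cdc6*, *Dnmt1*, *Gins3*, *Mcm5*, *Mcm6*, *Mcm7*, *Orc1*, *Pola1*, *Rfc3* and *Uhrf1*, which is 10 of the 38 genes or 26.3%, against 583 of the 27025 genes in the table or 2.16%. A gene with several starts was counted when any of its windows held the letters. The matching windows of *Cdc6*, *Dnmt1*, *Mcm7* and *Uhrf1* lie wholly within the annotated span of the gene. The CCAAT box (letters CCAAT) stood before 60.5% of the matched members and 37.5% of all genes, and the cell cycle homology region (letters TTTGAA) before 18.4% and 18.3%. No E2F match overlapped another of these motifs. Below are windows from *Orc1*, *Mcm5*, *Mcm6* and *Pola1*, which hold the E2F letters (in capitals), and from *Cdc7* (the upstream one of its windows) and *Cdt1*, which do not and which had the most negative and the most positive log2 fold change of the 46 genes.
Orc1, chr4:108579204-108579453, plus strand: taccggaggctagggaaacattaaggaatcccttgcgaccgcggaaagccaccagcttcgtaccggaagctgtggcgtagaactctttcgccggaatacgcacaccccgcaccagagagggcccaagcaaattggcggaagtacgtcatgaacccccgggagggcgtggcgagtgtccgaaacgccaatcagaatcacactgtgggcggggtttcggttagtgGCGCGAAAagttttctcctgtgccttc
Mcm5, chr8:75109259-75109508, plus strand: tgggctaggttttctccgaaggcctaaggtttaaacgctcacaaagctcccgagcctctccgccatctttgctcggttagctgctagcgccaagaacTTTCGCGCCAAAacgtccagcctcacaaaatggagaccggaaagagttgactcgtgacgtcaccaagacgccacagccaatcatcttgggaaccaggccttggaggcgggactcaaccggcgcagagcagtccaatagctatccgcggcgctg
Mcm6, chr1:128359706-128359955, minus strand: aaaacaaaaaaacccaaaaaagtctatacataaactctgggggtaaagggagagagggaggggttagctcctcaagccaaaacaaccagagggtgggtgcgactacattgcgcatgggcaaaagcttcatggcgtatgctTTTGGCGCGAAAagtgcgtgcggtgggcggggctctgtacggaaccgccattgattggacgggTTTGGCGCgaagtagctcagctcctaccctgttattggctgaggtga
Pola1, chrX:93632156-93632405, minus strand: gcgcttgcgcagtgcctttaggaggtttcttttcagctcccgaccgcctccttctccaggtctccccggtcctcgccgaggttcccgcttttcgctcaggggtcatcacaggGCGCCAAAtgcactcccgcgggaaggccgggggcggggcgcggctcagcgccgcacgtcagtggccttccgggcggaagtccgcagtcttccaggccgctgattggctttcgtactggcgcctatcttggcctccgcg
Cdc7, chr5:106964072-106964321, plus strand: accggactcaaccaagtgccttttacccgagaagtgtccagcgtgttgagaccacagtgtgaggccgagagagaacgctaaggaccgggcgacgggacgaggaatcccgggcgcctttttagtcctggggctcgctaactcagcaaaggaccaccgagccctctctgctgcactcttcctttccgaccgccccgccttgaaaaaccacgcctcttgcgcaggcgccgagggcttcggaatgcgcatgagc
Cdt1, chr8:122567765-122568014, plus strand: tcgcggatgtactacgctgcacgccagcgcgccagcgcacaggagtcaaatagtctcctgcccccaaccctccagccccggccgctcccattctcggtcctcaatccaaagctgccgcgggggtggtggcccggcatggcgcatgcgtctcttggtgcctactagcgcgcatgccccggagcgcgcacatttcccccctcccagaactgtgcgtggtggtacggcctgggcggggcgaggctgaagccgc
In *Mcm5* and *Mcm6* a match on each strand overlaps the other, and *Mcm6* holds 3 matches in all. The median log2 fold change was -0.53 over the 10 genes with the E2F letters, with a range of -0.81 to -0.21, and -0.45 over the 28 matched genes without them, with a range of -1.10 to 0.019. *E2f1* is among those without, but its only window lies within its annotated span, so the bases before that span were not searched. A match is only a run of letters and says nothing of binding. Other letters and bases outside the windows were not searched, so a gene without a match may still hold an E2F site.

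Most replication genes were lower in Tyr-H than in Tyr-L, by less than 2-fold. On the deposited scale 41 of the 46 genes were lower and 0 were higher at the test's threshold, while 39.9% of all tested genes were lower and 17.9% higher. *Cdc7* alone passed both thresholds, which 5.78% of all tested genes passed as lower and 2.96% as higher. The median log2 fold change of the 46 genes was -0.47, with a range of -1.10 to 0.019, and that of all tested genes was -0.15. Taken relative to all genes, the median of the replication genes was -0.31.

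The 3 values of one group lay apart from the 3 of the other for 42 of the 46 genes, Tyr-H being lower each time. Of all tested genes, 43.8% were separated in that direction and 20.2% in the other. The FPKM of the 46 genes summed to between 2571 and 2624 in the Tyr-L libraries and to between 1829 and 1929 in the Tyr-H libraries. Libraries of one group differed by a median absolute log2 difference of 0.053 to 0.081 over these genes, and libraries of different groups by 0.40 to 0.48. Over all genes these differences were 0.095 to 0.11 and 0.31 to 0.37.

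The direction of a small change depended on how the libraries were scaled. Scaling by median ratios moved the median of all genes to -0.0077, and 34 of the 46 genes were then lower and 2 higher, against 27.0% and 27.9% of all tested genes, with a member median of -0.31. After a correction for GC content and transcript length 35 were lower and 2 higher, against 26.0% and 28.4% of all tested genes, again with a member median of -0.31. Across all 17 alternatives tried, 31 of the 46 genes stayed lower at the threshold in each one, against 24.4% of the 11010 genes tested in all of them. The 10 that passed on the deposited scale but not in every alternative were *Gins1*, *Gins4*, *Mcm5*, *Mcm6*, *Pola1*, *Pole*, *Rfc1*, *Rfc4*, *Rpa2* and *Ung*.

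**Figure D1:**
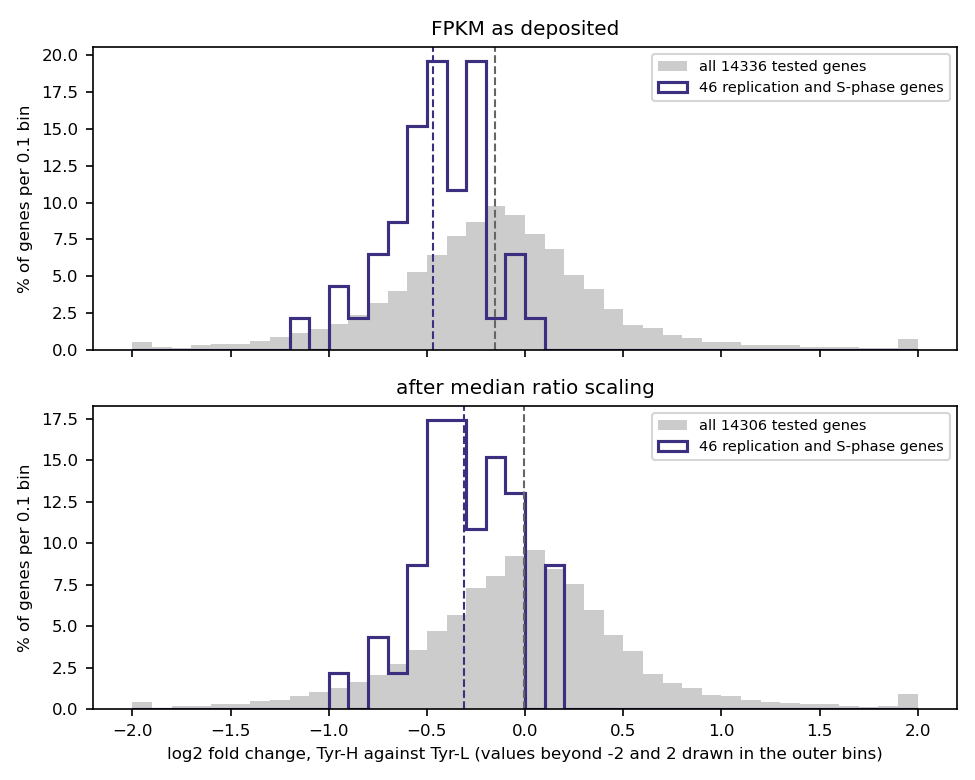
Share of genes (%) in each 0.1-wide bin of log2 fold change, Tyr-H against Tyr-L, for all tested genes (grey) and the 46 replication genes (outline), with FPKM as deposited (top) and after median ratio scaling (bottom), where dashed lines mark the medians and values beyond -2 and 2 are drawn in the outer bins. The replication genes sit to the left of all genes on both scales, with medians of -0.47 against -0.15 at the top and -0.31 against -0.0077 at the bottom.

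**Figure D2:**
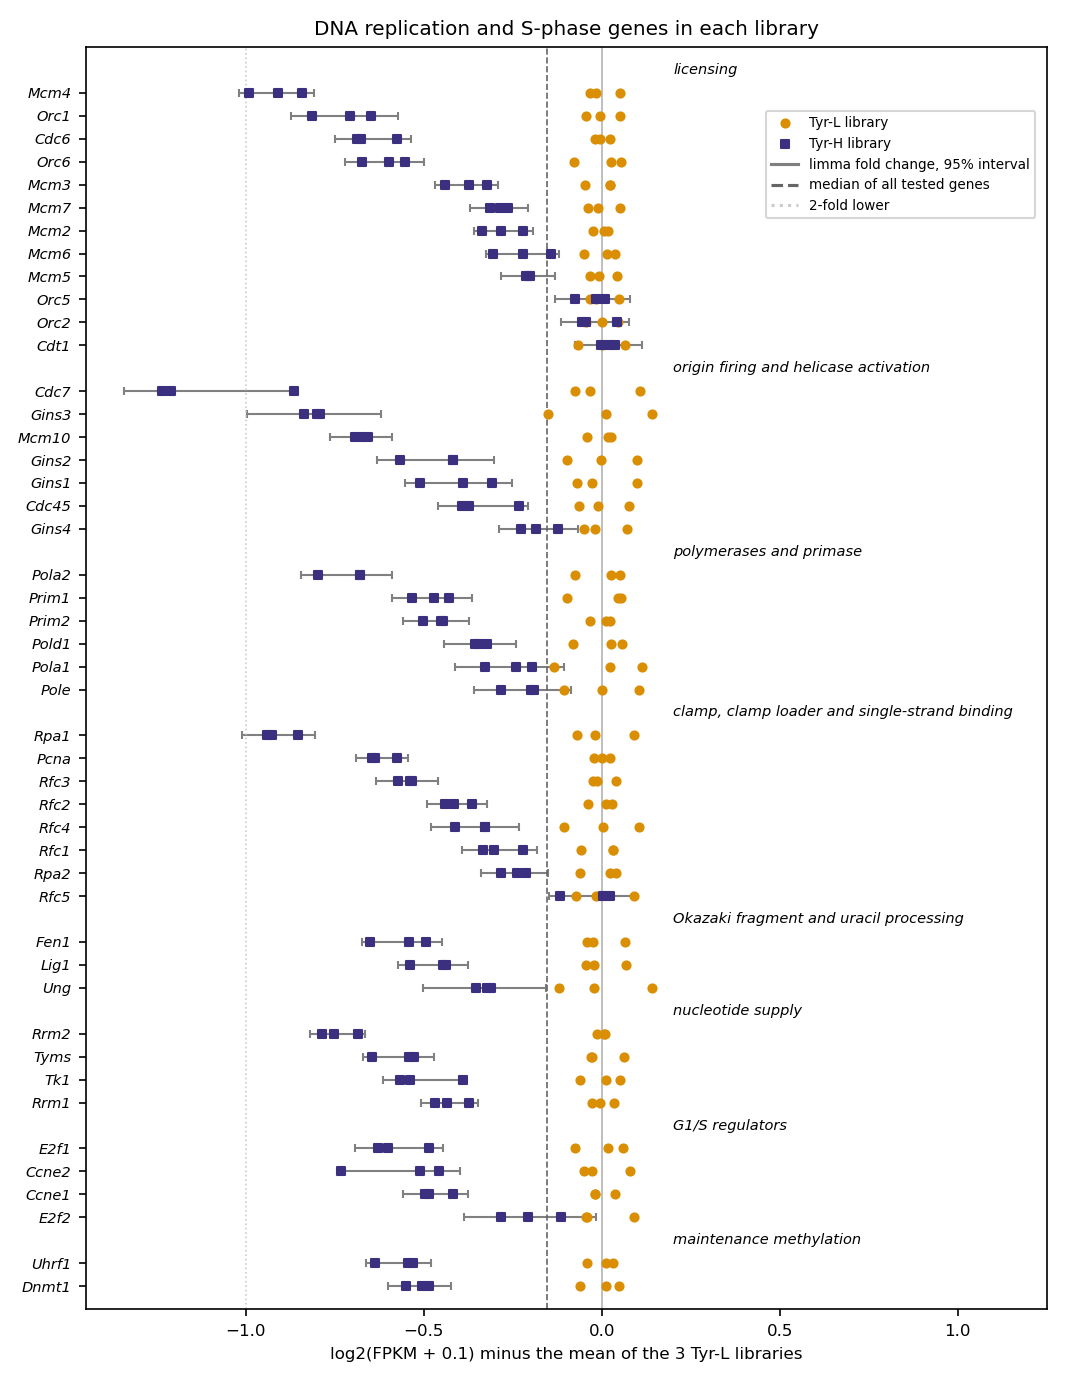
Each replication gene in each library, as log2(FPKM + 0.1) minus the mean of the 3 Tyr-L libraries, grouped by role and sorted within a role by fold change; circles are Tyr-L and squares Tyr-H libraries, grey bars are the limma fold change with its 95% interval, the dashed line is the median of all tested genes and the dotted line 2-fold lower. The Tyr-H squares lie left of the Tyr-L circles for 42 genes, and *Cdc7* lies farthest left.

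Of the 12 licensing genes, 9 were lower in Tyr-H on the deposited scale, with a median log2 fold change of -0.28, and after median ratio scaling 7 were lower and 2 higher, with a median of -0.13. The MCM helicase is a ring of 6 different subunits, all of which are members and all of which were lower, but not equally. *Mcm4* (chr16:15623897-15637400, minus strand) read 50.2, 50.8 and 53.2 FPKM in Tyr-L and 28.6, 27.3 and 25.8 FPKM in Tyr-H. The Tyr-H libraries were all far below the Tyr-L libraries, at 53.0% of their mean (log2 fold change -0.91, SE 0.046, limma adjusted p = 7.67e-07). *Mcm3* (chr1:20802968-20820312, minus strand), the licensing gene with the highest mean, read 138, 145 and 145 FPKM in Tyr-L and 114, 110 and 105 FPKM in Tyr-H. These groups did not overlap either, but the fall was smaller, by 0.38 on the log2 scale (SE 0.039, limma adjusted p = 3.70e-05). *Mcm2*, *Mcm5*, *Mcm6* and *Mcm7* had log2 fold changes of -0.28, -0.21, -0.22 and -0.29, and those of *Mcm5* and *Mcm6* were no longer past the threshold after median ratio scaling (-0.053 and -0.069, limma adjusted p = 0.226 and 0.249).

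The unequal change in the helicase was also seen as a ratio within each library, which no scaling of whole libraries can move. The FPKM of *Mcm4* was 0.486, 0.47 and 0.5 of the mean of the other 5 subunits in the Tyr-L libraries and 0.317, 0.314 and 0.308 in the Tyr-H libraries. The groups did not overlap, and a two-sided exact permutation test gave p = 0.1, which is as low as 3 against 3 libraries can reach. This ratio and those below were chosen after the values were seen, and no test was adjusted for that choice.

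The ORC genes also changed unequally. *Orc1*, the ATPase subunit whose level varies with the cell cycle, and *Orc6* were lower, at 60.2% and 65.4% of their Tyr-L means (log2 fold changes -0.72 and -0.61, limma adjusted p = 1.88e-05 and 8.78e-06). *Orc2*, a core subunit, read 39.8, 38.6 and 41.1 FPKM in Tyr-L and 41.0, 38.3 and 38.6 FPKM in Tyr-H, and *Orc5*, another, read 17, 17.2 and 18 FPKM and 17.2, 16.5 and 17.5 FPKM. Both overlapped between the groups, with 95% intervals of the log2 fold change of -0.11 to 0.076 for *Orc2* and -0.13 to 0.078 for *Orc5*. Of the core subunits that are not members, *Orc3* was lower on the deposited scale (log2 fold change -0.19, limma adjusted p = 0.00386) but not after median ratio scaling (-0.041, limma adjusted p = 0.464), and *Orc4* did not pass the test (-0.14, limma adjusted p = 0.182). The ratio of *Orc1* to *Orc2* was 0.244 to 0.245 in Tyr-L and 0.144 to 0.160 in Tyr-H (two-sided exact permutation p = 0.1).

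Of the 2 proteins that help ORC load the helicase, one was lower and the other did not pass the test. *Cdc6*, the loading ATPase, was at 63.9% of its Tyr-L mean (log2 fold change -0.64, SE 0.048, limma adjusted p = 5.46e-06). *Cdt1*, which brings the helicase to the origin, read 35.2, 38.6 and 36.9 FPKM in Tyr-L and 37.8, 37.4 and 36.8 FPKM in Tyr-H. Its groups overlapped, and the 95% interval of its log2 fold change was -0.076 to 0.11. *Gmnn* encodes geminin, the inhibitor of Cdt1, and is not one of the 46 genes. It was lower at 73.6% of its Tyr-L mean (log2 fold change -0.44, limma adjusted p = 5.56e-05). The ratio of *Cdt1* to *Gmnn* was accordingly higher in Tyr-H, at 1.56, 1.55 and 1.62, than in Tyr-L, at 1.09, 1.14 and 1.21 (two-sided exact permutation p = 0.1). *Cdt1* and *Orc2* are the members that were higher after median ratio scaling (log2 fold changes 0.17 and 0.13, limma adjusted p = 0.00828 and 0.0288), and *Orc2* and *Orc5* the ones that were higher after the GC content and length correction (0.18 and 0.24).

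**Figure D3:**
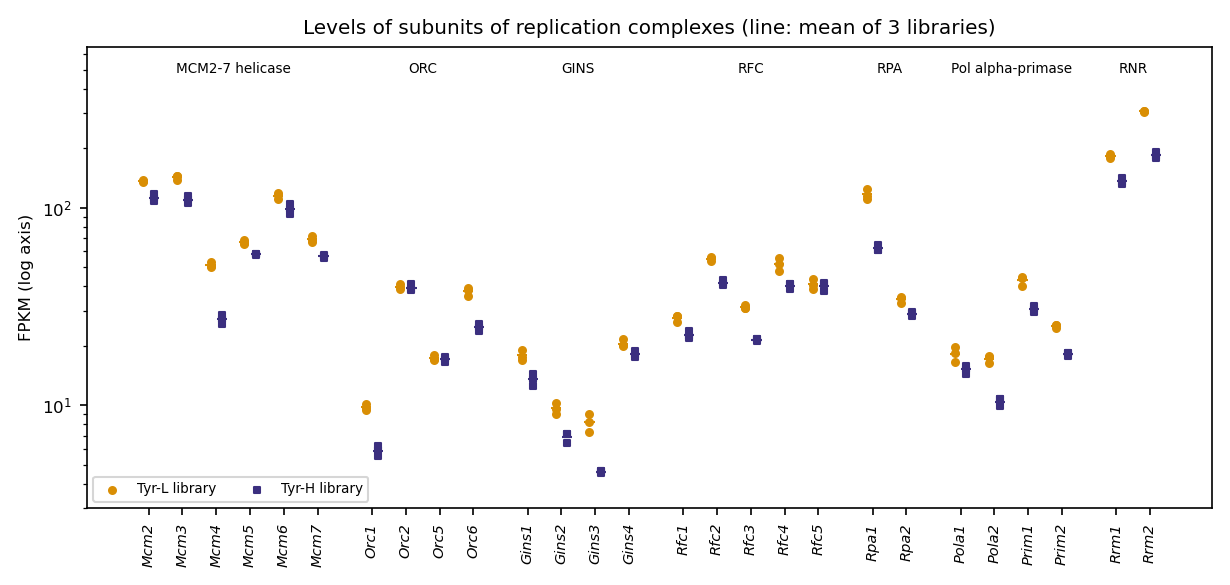
FPKM (log axis) of the subunits of 7 replication complexes in each library, circles for Tyr-L and squares for Tyr-H, with a short line at the mean of the 3 libraries. Within the helicase *Mcm4* shows the widest gap between the groups, within RPA *Rpa1*, and within ORC *Orc1*, while *Orc2*, *Orc5* and *Rfc5* overlap.

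All 7 genes of origin firing and helicase activation were lower in Tyr-H on the deposited scale, with a median log2 fold change of -0.47, and 6 of the 7 after median ratio scaling and after the GC content and length correction. *Cdc7* (chr5:106964322-106984432, plus strand) encodes the kinase that phosphorylates the loaded helicase. It read 9.69, 9.41 and 10.7 FPKM in Tyr-L and 5.40, 4.23 and 4.15 FPKM in Tyr-H. The highest Tyr-H library was well below the lowest Tyr-L library, and the mean in Tyr-H was 46.2% of that in Tyr-L (log2 fold change -1.10, SE 0.11, limma adjusted p = 2.31e-05). After median ratio scaling and after the GC content and length correction the log2 fold change of *Cdc7* was -0.95 and -0.89, and 0 members passed both thresholds. Of all tested genes 4.05% passed both as lower and 3.80% as higher after the scaling, and 3.51% and 3.83% after the correction. *Dbf4*, its activating subunit and not a member, fell by 0.26 on the log2 scale (limma adjusted p = 0.00312). That call was lost after median ratio scaling (-0.11, limma adjusted p = 0.109) and after the GC content and length correction (-0.020, limma adjusted p = 0.736). The ratio of *Cdc7* to *Dbf4* was 0.252 to 0.295 in Tyr-L and 0.127 to 0.183 in Tyr-H (two-sided exact permutation p = 0.1).

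*Mcm10* (chr2:4989714-5012791, minus strand), needed to start unwinding, read 34.2, 35.6 and 35.8 FPKM in Tyr-L and 22, 21.7 and 22.3 FPKM in Tyr-H, with no overlap (log2 fold change -0.68, SE 0.038, limma adjusted p = 1.27e-06). *Cdc45*, which completes the active helicase, had a log2 fold change of -0.33. The 4 subunits of GINS are held together in equal numbers in the protein complex, but their transcripts changed by different amounts, with log2 fold changes of -0.40, -0.47, -0.81 and -0.18 for *Gins1* to *Gins4* in order. That of *Gins4* did not pass the test after median ratio scaling (-0.025, limma adjusted p = 0.687) or after the GC content and length correction (-0.076, limma adjusted p = 0.166). *Gins3* was 0.362 to 0.453 of *Gins4* in the Tyr-L libraries and 0.240 to 0.267 in the Tyr-H libraries, again without overlap (two-sided exact permutation p = 0.1).

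The 6 polymerase and primase genes were all lower in Tyr-H on the deposited scale, with a median log2 fold change of -0.40. Polymerase alpha and primase form one complex that lays down the primers. Its regulatory subunit *Pola2* (chr19:5940542-5964202, minus strand) read 16.3, 17.8 and 17.5 FPKM in Tyr-L and 10.7, 10.7 and 9.85 FPKM in Tyr-H, with no overlap (log2 fold change -0.72, SE 0.057, limma adjusted p = 7.94e-06). The catalytic subunit *Pola1* differed less. It read 19.6, 16.5 and 18.4 FPKM in Tyr-L and 15.3, 15.8 and 14.4 FPKM in Tyr-H, a log2 fold change of -0.26 that became 0.051 after the GC content and length correction. *Prim1*, the primase catalytic subunit and the highest of the 6, read 44.3, 44.1 and 39.9 FPKM in Tyr-L and 31.7, 30.8 and 29.5 FPKM in Tyr-H (log2 fold change -0.48, SE 0.050, limma adjusted p = 4.00e-05). Its partner *Prim2* had nearly the same log2 fold change, -0.47. *Pold1* and *Pole*, the catalytic subunits of the polymerases that extend the lagging and the leading strand, had log2 fold changes of -0.34 and -0.22, and *Pole* did not pass the test on either corrected scale.

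Of the 8 genes for the clamp, its loader and the single-strand binding protein, 7 were lower on the deposited scale, with a median log2 fold change of -0.38. *Rpa1* (chr11:75298166-75348324, minus strand), the large subunit of the RPA complex that coats single-stranded DNA, read 124, 111 and 115 FPKM in Tyr-L and 61.2, 64.4 and 60.7 FPKM in Tyr-H. The Tyr-H libraries lay at 53.2% of the Tyr-L mean with no overlap (log2 fold change -0.91, SE 0.045, limma adjusted p = 6.50e-07). An annotated gene, *Gm47300*, overlaps exons of *Rpa1* on the same strand, and the reads of both cannot be told apart here. *Rpa2* fell by only 0.25 and the small subunit *Rpa3*, not a member, by 0.36 on the log2 scale, but *Rpa2* did not pass the test after median ratio scaling (-0.093, limma adjusted p = 0.102) nor *Rpa3* after the GC content and length correction (-0.070, limma adjusted p = 0.398). The ratio of *Rpa1* to *Rpa2* was 3.76, 3.18 and 3.27 in Tyr-L and 2.07, 2.21 and 2.15 in Tyr-H (two-sided exact permutation p = 0.1).

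*Pcna* (chr2:132249162-132253314, minus strand), the sliding clamp that keeps polymerases on DNA, read 255, 259 and 251 FPKM in Tyr-L and 171, 163 and 164 FPKM in Tyr-H. Its groups were widely separated (log2 fold change -0.62, SE 0.032, limma adjusted p = 8.58e-07). Pseudogenes named after *Pcna* and *Tyms* are annotated and could share reads with them. Of the clamp loader subunits, *Rfc1*, *Rfc2*, *Rfc3* and *Rfc4* were lower (log2 fold changes -0.29, -0.41, -0.55 and -0.36), those of *Rfc1* and *Rfc4* not past the threshold after the GC content and length correction. *Rfc5* stood apart from them. It read 40.4, 43.5 and 38.9 FPKM in Tyr-L and 41.0, 37.7 and 41.5 FPKM in Tyr-H, its groups overlapped, and the 95% interval of its log2 fold change was -0.15 to 0.089. The ratio of *Rfc5* to the mean of *Rfc2*, *Rfc3* and *Rfc4* was 0.874 to 0.918 in Tyr-L and 1.12 to 1.20 in Tyr-H (two-sided exact permutation p = 0.1).

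The genes that finish the lagging strand were lower. *Fen1* (chr19:10199132-10204169, minus strand), the nuclease that trims flaps from Okazaki fragments, read 46.1, 46.7 and 49.7 FPKM in Tyr-L and 33.7, 32.6 and 30.2 FPKM in Tyr-H (log2 fold change -0.56, SE 0.050, limma adjusted p = 1.53e-05). *Lig1* (chr7:13277283-13311433, plus strand), the ligase that seals them, read 54.7, 59.1 and 55.6 FPKM in Tyr-L and 41.4, 41.6 and 38.8 FPKM in Tyr-H (log2 fold change -0.48, SE 0.044, limma adjusted p = 1.87e-05). Neither gene overlapped between the groups. *Ung*, which removes uracil from DNA, was lower on the deposited scale (log2 fold change -0.33) but did not pass the test after median ratio scaling (-0.18, limma adjusted p = 0.0792).

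All 4 genes of deoxynucleotide supply were lower on the deposited scale, after median ratio scaling and after the GC content and length correction, with a median log2 fold change of -0.54 on the first. *Rrm2* (chr12:24708241-24714146, plus strand), the small subunit of ribonucleotide reductase, had the highest mean of the 46 genes. It read 308, 309 and 304 FPKM in Tyr-L and 191, 182 and 178 FPKM in Tyr-H, which is 59.8% of the Tyr-L mean and far outside the spread within a group (log2 fold change -0.74, SE 0.034, limma adjusted p = 4.47e-07). *Rrm1*, the large subunit, had a log2 fold change of -0.43, which was -0.27 after median ratio scaling and -0.13 after the GC content and length correction. The ratio of *Rrm2* to *Rrm1* was therefore lower in Tyr-H, at 1.35 in each library, than in Tyr-L, at 1.62 to 1.72 (two-sided exact permutation p = 0.1). *Tyms*, thymidylate synthase, and *Tk1*, the thymidine kinase of the salvage pathway, had log2 fold changes of -0.57 and -0.50 and were both separated between the groups.

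Of the 4 regulators of the G1 to S transition, 3 were lower, with a median log2 fold change of -0.52. *E2f1* (chr2:154559407-154569892, minus strand), an activating E2F, read 22.5, 24.7 and 24.0 FPKM in Tyr-L and 15.6, 16.9 and 15.3 FPKM in Tyr-H (log2 fold change -0.57, SE 0.055, limma adjusted p = 2.34e-05). *Ccne1* (chr7:38097984-38107534, minus strand), one of the E-type cyclins that activate Cdk2, read 33.4, 32.1 and 32.1 FPKM in Tyr-L and 24.3, 23.2 and 23.0 FPKM in Tyr-H (log2 fold change -0.47, SE 0.040, limma adjusted p = 1.26e-05). The groups did not overlap for either gene. *Ccne2* had a log2 fold change of -0.56. *E2f2*, the member with the lowest mean, read 4.90, 4.91 and 5.39 FPKM in Tyr-L and 4.37, 4.67 and 4.14 FPKM in Tyr-H. Its values were separated but it did not pass the test (log2 fold change -0.20, 95% interval -0.39 to -0.017, limma adjusted p = 0.0599), and it did pass without the second Tyr-H library (limma adjusted p = 0.049) and with FPKM rescaled to a common total (limma adjusted p = 0.02).

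Both genes that copy DNA methylation onto the new strand were lower. *Uhrf1* (chr17:56303321-56323486, plus strand), which recognises hemimethylated sites behind the fork, read 62.0, 64.4 and 65.3 FPKM in Tyr-L and 44.2, 43.8 and 41.0 FPKM in Tyr-H (log2 fold change -0.57, SE 0.041, limma adjusted p = 4.30e-06). *Dnmt1* (chr9:20907209-20959888, minus strand), the methyltransferase it recruits, read 65.3, 70.4 and 68.7 FPKM in Tyr-L and 48.6, 47.9 and 46.5 FPKM in Tyr-H (log2 fold change -0.51, SE 0.039, limma adjusted p = 6.11e-06). The groups were separated for both.

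Reads from overlapping genes could not be assigned to a strand here. Exons of 16 members overlap those of another annotated gene, 13 of them lower with a median log2 fold change of -0.44. Of the 30 members without such an overlap 28 were lower, with a median of -0.47. Of the 5 members that did not pass the test, *Orc2* overlaps *Nif3l1*, *Orc5* overlaps *Gm15421* and *Rfc5* overlaps *Wsb2*, while *Cdt1* lies in a deposited locus that merges many genes, as does *Gins2*, which was lower. In all, 21 members have a deposited locus that is shared with another gene. The part of these overlaps and shared loci in the values was not tested.

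The other genes of the pathway moved mostly in the same direction. Of 53 further replication genes, 39 were lower, 3 were higher and 11 did not pass on the deposited scale, with a median log2 fold change of -0.41. Of all tested genes 39.9% were lower and 17.9% higher on that scale. After median ratio scaling 35 of the 53 were lower and 8 higher, with a median of -0.26, against 27.0% and 27.9% of all tested genes. After the GC content and length correction 33 were lower and 8 higher, against 26.0% and 28.4% of all tested genes. The genes below are given on the deposited scale. Among 33 further machinery genes 23 were lower and 2 higher, the higher ones being *Pold4*, a small polymerase delta subunit (log2 fold change 0.25), and *Rnaseh2a*, which removes ribonucleotides from DNA (0.28). The largest changes were in *Dna2*, a nuclease and helicase that processes long flaps, which fell from 12.8, 12.7 and 12.2 FPKM in Tyr-L to 4.68, 5.03 and 4.54 FPKM in Tyr-H (log2 fold change -1.39, limma adjusted p = 4.47e-07), in *Top1*, the topoisomerase that relieves twist ahead of the fork (-0.99), and in *Clspn*, the checkpoint adaptor claspin (-0.89). Nucleotide and histone supply had 5 of 6 genes lower, among them *Slbp*, the histone mRNA binding protein (-0.71), and *Dut*, which breaks down dUTP (-0.63). Of 14 further regulators of the transition 11 were lower and 1, the retinoblastoma gene *Rb1*, was higher (0.31). *Cdk2* had the largest fall of these (-1.56), with values of 98.1 to 103 FPKM in Tyr-L and 31.6 to 36.9 FPKM in Tyr-H. Its exons overlap those of *Pmel* on the opposite strand, a melanosome gene with a mean of 1370 FPKM in Tyr-L that was also lower, so the value of *Cdk2* is uncertain. *E2f8* and *Rbl1* followed (-0.90 and -0.85).

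Genes of the other phases were set beside these. All 14 mitotic genes examined were lower on the deposited scale, and 13 after the GC content and length correction, with a deposited-scale median log2 fold change of -0.54, led by *Cenpe* (-1.22), *Mki67* (-1.19) and *Bub1* (-0.67). Of all tested genes 39.9% were lower on the deposited scale and 26.0% after the correction. Of the 9 G1 cyclins, kinases and inhibitors that were listed, of 11 looked for, 4 were higher and 2 lower, with a median of 0.13, and 5 were higher after median ratio scaling, with a median of 0.28. The share of all tested genes that were higher was 17.9% on the deposited scale and 27.9% after the scaling. The largest changes in this G1 list were higher levels in Tyr-H, of *Cdk6* (0.79), the kinase inhibitor *Cdkn1a* (0.71) and *Ccnd2* (0.48). The other higher gene was *Ccnd1* (0.13, limma adjusted p = 0.0481), whose groups overlapped. The 2 lower genes were *Cdk4* (-0.47) and *Cdkn2c* (-0.46).

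**Figure D4:**
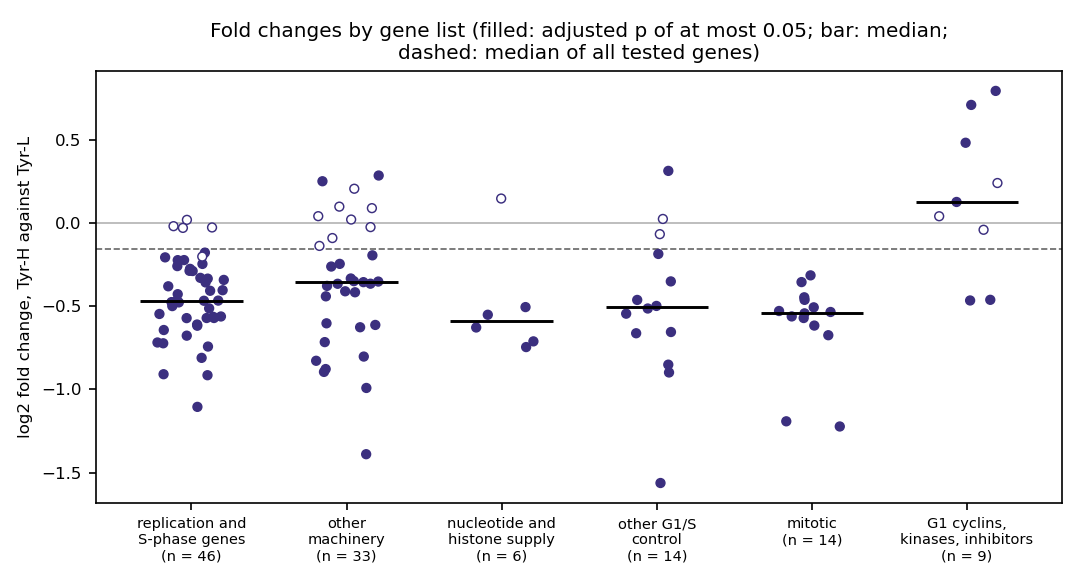
Log2 fold change, Tyr-H against Tyr-L on the deposited scale, of each tested gene in the 46 replication genes and 5 further lists; filled points passed the test, open points did not, bars are list medians, and the dashed line is the median of all tested genes. The replication and mitotic lists have medians of -0.47 and -0.54, below the dashed line, and the G1 list has a median of 0.13, above it.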

How the data were processed

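Poly(A) RNA libraries from 3 Tyr-L and 3 Tyr-H samples of B16 cells were sequenced as 150 bp read pairs. The authors deposited 1 table of FPKM per library. Their processing notes name Trimmomatic, HISAT2, HISAT and GRCm38.p6; the quantifier, its strand setting and its annotation are not given in the sources used here. A gene with no value is not listed and was set to 0. FPKM are shares of a library, so values on the deposited scale depend on what else was expressed.

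Values were transformed as log2(FPKM + 0.1), genes whose mean reached 0.1 FPKM were kept, and Tyr-H was compared with Tyr-L in limma 3.58.1 (R 4.3.3; lmFit, eBayes with trend, Benjamini-Hochberg adjustment over all 14336 genes). The study's rule, a Q value of at most 0.05 and a fold change of at least 2, gave the second threshold. Ratios and single values were compared with two-sided exact permutation tests (scipy 1.17.1). The fit was tested on simulated data. The members and the other gene lists were chosen with earlier results of these data known. Values in each library are given for members past both thresholds and, in each role group, for the one with the largest absolute fold change and the one with the highest mean; the 5 members that did not pass the test, *Pola1* and the ratios were added after their values were seen. Of the other lists the 3 largest changes past the test are named, except for 1 gene that is not reported here, and the genes that were higher, *Gmnn*, *Dbf4*, *Rpa3*, *Orc3* and *Orc4* were added after their values were seen. Gene coordinates are from GENCODE M21 on GRCm38. GC content and length of the longest transcript were fitted per library with splines of 5 degrees of freedom (14304 genes, all 46 members included). Alternatives covered the pseudocount, the filter, the scaling, the variance trend, GC content and length, a replicate block and each library left out. Same-numbered libraries did not deviate together (r = 0.022, 0.013 and -0.083), so the numbers were not taken as pairs.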

Additional observations from a re-analysis of the deposited data

How the results depend on the processing

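The count of members lower in Tyr-H kept its side of the 1.5-fold limit in all 17 alternatives, as did the count of separated members wherever it was computed (it was not under the GC content and length correction). Median ratio scaling gave a member median of -0.31, 2 members higher, 0 past both thresholds and 8 other replication genes higher; quantile normalization gave -0.35, 1 (*Cdt1*), 0 and 9, where 26.0% of all tested genes were higher and 3.45% passed both as lower; the GC content and length correction gave -0.31, 2, 0 and 8, and with the replicate block -0.31, 2, 0 and 7. A total of 1000000 FPKM gave a median of -0.56 and 3 members past both thresholds (*Cdc7*, *Mcm4*, *Rpa1*), where 8.19% of all tested genes passed both as lower, and a pseudocount of 1 FPKM gave 0, where 1.42% did. The cause of these moves was not tested. Signs turned for 5 members, of which only *Pola1* had passed the test on the deposited scale: *Cdt1* to -0.076 with the common total, *Orc2*, *Orc5* and *Rfc5* to 0.13, 0.13 and 0.12 by median ratios and to 0.077, 0.11 and 0.069 by quantiles, and *Orc2*, *Orc5*, *Pola1* and *Rfc5* to 0.18, 0.24, 0.051 and 0.047 after the GC content and length correction, with or without the block. Leaving out a library gave 41 to 42 members lower, 0 higher, 1 past both, 42 separated, a median of -0.47 to -0.44 (-0.32 to -0.28 relative to all genes), and 38 to 40 other genes lower and 3 to 4 higher; the log2 fold change then ranged from -0.015 to 0.051 for *Cdt1* (lowest without Tyr-L 1), from -0.065 to 0.014 for *Rfc5* (above 0 without Tyr-L 2 or Tyr-H 2) and from -0.051 to 0.0041 for *Orc2* (above 0 without Tyr-L 3). The replicate block alone changed no member's call, with 41 lower, 0 higher and 1 past both. Over all genes, 1254 passed both thresholds as deposited and 388 with a pseudocount of 1 FPKM, and the share of these that were higher was 33.9% as deposited, 48.4% by median ratios, 55.3% by quantiles and 52.2% with the GC content and length correction. With 3 libraries per group an exact test cannot go below 0.1.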
